A study of Mus musculus with 6 samples.

Results

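The 44 genes described here encode the ligands, receptors, Smad signal carriers and inhibitors of the BMP and TGF-beta pathway, with the Id genes as targets. They were found by gene symbol in a count table of 55416 genes, where each symbol matched 1 row. The list was drawn up with earlier results of these data known. The table came from total RNA sequencing of ganglionic eminences, the ventral forebrain swellings that give rise to striatal neurons and cortical interneurons, of E13.5 mouse embryos, a mid-gestation stage. Of the 6 libraries, 3 were from Dlx1/Dlx2 double knockout embryos and 3 from wildtype littermates. The labels gave neither the alleles nor the sex of the embryos, and did not say from which litter a library came or whether embryos were pooled. The labels do not say that the 3 libraries of a group came from separate embryos, so p-values measure the spread between these libraries, which may be technical in part.

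BMPs, activins and TGF-betas are secreted dimers that bring together type II and type I serine/threonine kinase receptors. The activated type I receptor phosphorylates receptor Smads, which join the common Smad, Smad4, and enter the nucleus. Smad1, Smad5 and Smad9 carry BMP signals, and Smad2 and Smad3 carry activin and TGF-beta signals. In the embryonic forebrain, BMPs are best known as signals of the dorsal midline. Their classic direct targets, the Id genes, encode helix-loop-helix proteins without a DNA-binding region that hold back proneural factors.

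Total counts ranged from 56618090 to 70114173 per library. The targeted genes matched the labels: Dlx1 fell to 18.6% and Dlx2 to 2.94% of the wild-type mean CPM (read counts scaled to library size with TMM factors), without overlap between groups. The 8 ganglionic eminence markers summed to 1053 to 1121 CPM in wild-type libraries and 830, 821.8 and 1047 CPM in double knockout replicates 1 to 3, with 3 of them called higher and 3 lower. Double knockout replicate 3 also stood apart over all tested genes, with a chi-square per gene of 36.4 and 29.7 against the other libraries of its group, which differed from each other by 13.1. Wild-type libraries differed from each other by 20.4 to 21.7. This statistic was taken on raw counts and grows with depth, and double knockout replicate 3 had the highest total count. Without double knockout replicate 3, 749 genes were called in place of 634, and 2 of the 44 pathway genes, Tgfb3 and Inhba, in place of 1. The 6 cortical markers were also detected, at 843.9 to 858.8 and 656.9 to 674.6 CPM without overlap. The sums for endothelium (122.8 to 143.0 and 128.4 to 149.9 CPM), microglia (33.7 to 42.1 and 33.1 to 48.2), meninges (25.95 to 41.0 and 29.2 to 30.01) and blood (108.1 to 135.8 and 98.1 to 155.8) overlapped between groups. The 6 mural cell markers summed to 176.7 to 195.7 and 209.7 to 251.5 CPM. Of these, only Notch3, which neural progenitors also express, had groups that did not overlap. The 7 choroid plexus and roof plate markers summed to 33.3 CPM in wild-type replicate 1 and to between 1.37 and 5.98 CPM in the other 5 libraries. Ttr alone was at 26.3 CPM in wild-type replicate 1. The sum of 4 Y-linked genes was 206.5 to 213.9 CPM in wild-type replicate 1 and double knockout replicates 2 and 3, and Xist was at 1234 to 1552 CPM in the other 3 libraries, so both patterns occurred in both groups and each group held RNA of more than 1 embryo.

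Of the 44 genes, 41 passed the low-count filter, and 1 differed between genotypes. That gene was Tgfb3, lower in the double knockout. A gene was called where its Benjamini-Hochberg adjusted p, taken over all tested genes in the quasi-likelihood test of edgeR, was under 0.05. Of all 23628 tested genes 2.68% were called, 1.34% as higher and 1.34% as lower. The 1 call among 41 was thus close to the background share. At a share of 2.68%, a role with few genes and no call was near the background too. The median log2 fold change (double knockout minus wild type) was 0.039 over the 41 genes and -0.00161 over all tested genes. An unadjusted p under 0.05 was found for 9 of the 41 genes, against 13.3% of all tested genes. The wild-type and double knockout libraries did not overlap for 9 genes, 5 higher and 4 lower in the double knockout, where 19.5% of all tested genes did not overlap, 9.3% higher and 10.2% lower. The 9 genes without overlap among 41 were thus near the background share too.

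**Figure D1:**
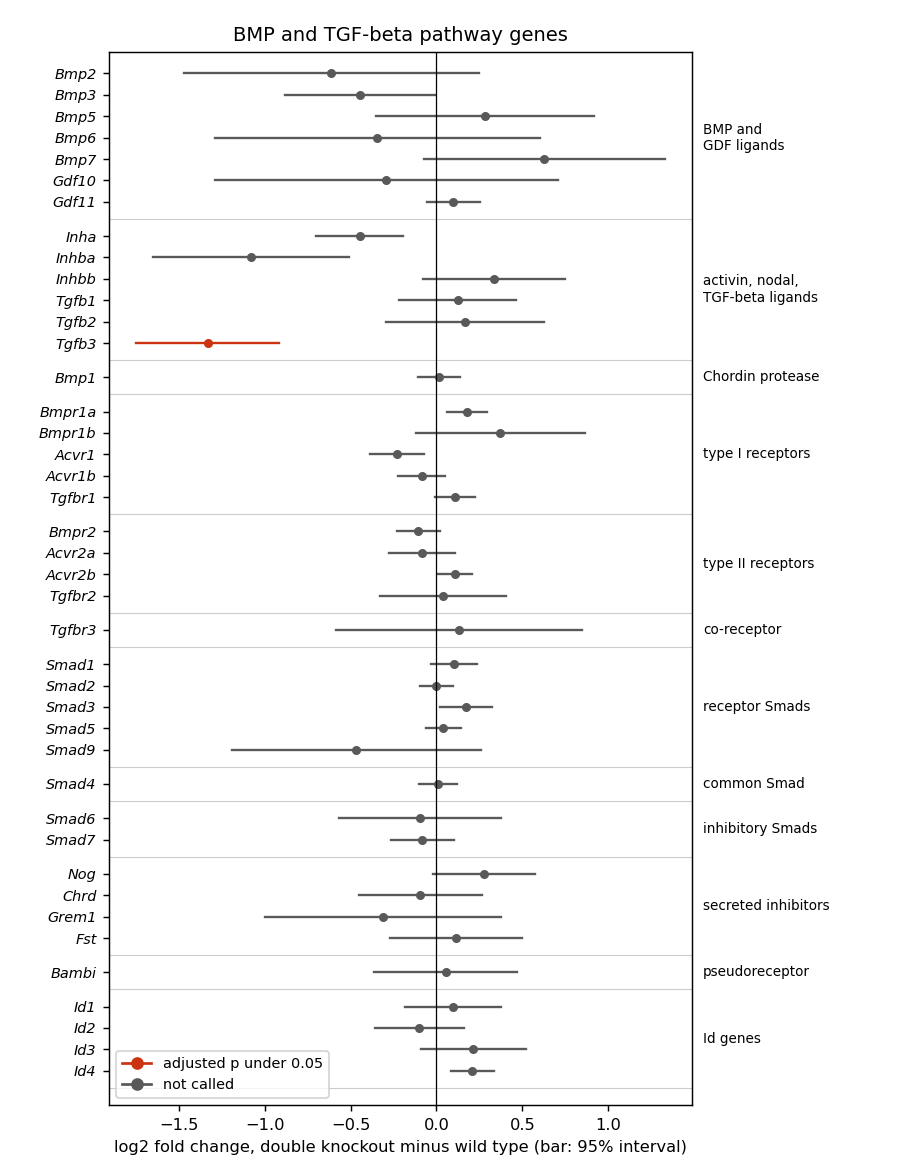
Log2 fold change (double knockout minus wild type, x axis) of the 41 tested genes of the pathway, grouped by role, with 95% intervals from the edgeR fit. Tgfb3, in red, is the gene called, at -1.33, and intervals are widest for the ligand genes Gdf10, Bmp6 and Bmp2.

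Because the Id genes are the usual readout of BMP signalling, the 250 bases before the annotated start are shown for those found in the RefSeq promoter table (GRCm38.p6, whereas the counts were made on GRCm39 per the submitters' processing notes). Inhba, with the largest fold difference of the activin and inhibin subunit genes, is shown beside them. Capitals mark GGCGCC, the core of the BMP-responsive Smad motif, and GTCT or its reverse complement AGAC, the Smad box; the motifs did not overlap one another.
Id2, chr12:25096093-25096342, minus strand: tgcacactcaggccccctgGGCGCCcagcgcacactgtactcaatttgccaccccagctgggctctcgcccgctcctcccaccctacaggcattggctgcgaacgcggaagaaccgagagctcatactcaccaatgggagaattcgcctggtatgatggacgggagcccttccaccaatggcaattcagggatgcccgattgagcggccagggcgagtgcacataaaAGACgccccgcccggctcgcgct
Id3, chr4:136143572-136143821, plus strand: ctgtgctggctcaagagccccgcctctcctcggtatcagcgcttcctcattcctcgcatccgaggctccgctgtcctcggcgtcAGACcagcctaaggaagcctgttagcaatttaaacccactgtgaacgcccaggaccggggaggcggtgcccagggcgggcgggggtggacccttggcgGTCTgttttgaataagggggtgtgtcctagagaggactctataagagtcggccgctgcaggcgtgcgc
Id4, chr13:48260866-48261115, plus strand: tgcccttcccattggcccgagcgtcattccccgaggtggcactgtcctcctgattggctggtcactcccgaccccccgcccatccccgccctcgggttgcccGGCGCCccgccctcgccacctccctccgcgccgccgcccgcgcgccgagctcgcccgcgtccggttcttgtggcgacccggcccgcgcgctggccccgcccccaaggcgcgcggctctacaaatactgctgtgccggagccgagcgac
Inhba, chr13:16011601-16011850, plus strand: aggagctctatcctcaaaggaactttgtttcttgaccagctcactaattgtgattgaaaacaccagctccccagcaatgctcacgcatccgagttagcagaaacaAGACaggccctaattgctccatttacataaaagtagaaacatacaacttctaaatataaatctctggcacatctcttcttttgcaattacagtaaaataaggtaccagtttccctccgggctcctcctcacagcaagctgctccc

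Id2 and Id4 each held 1 GGCGCC, while Id3 and Inhba held none. Over the 37 promoters of the 31 pathway genes in that table, 27% held GGCGCC on either strand, against 9.59% of all 32851 promoters in windows of the same length. GTCT was in 81.1% and 82.9%, and the homeodomain core TAATTA in 0 of 37 and 4.84%. These are matches of letters in a short window, not measured binding. GGCGCC holds only G and C, and the promoters were not matched for base composition. Some genes, such as Smad5 and Bmpr1b, gave several of the 37 promoters. Tgfb3 and Id1 were not among the promoters matched.

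Levels differed more between genes than between genotypes. Per kilobase of annotated exon (RPKM, CPM divided by exon length), Id4 was the highest of the 44 genes at 62.5 ± 2.93 RPKM in the wild type and 72.2 ± 2.18 in the double knockout (SD, n = 3). Smad4 followed at 35.9 ± 0.315 and 36.1 ± 1.66 RPKM. Of the 10 receptor genes, 6 lay between 19.8 RPKM for Bmpr1a and 28.7 for Acvr2a in the wild type, and Tgfbr2, the type II receptor of the TGF-betas, was at 0.845 RPKM and the co-receptor gene Tgfbr3 at 0.141 RPKM. Ligands were scarcer. Gdf11 was the highest at 11.6 ± 0.827 RPKM in the wild type, Inha followed at 6.62 ± 0.515, and none of the genes Bmp2 to Bmp7 exceeded 0.405 RPKM there.

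**Figure D2:**
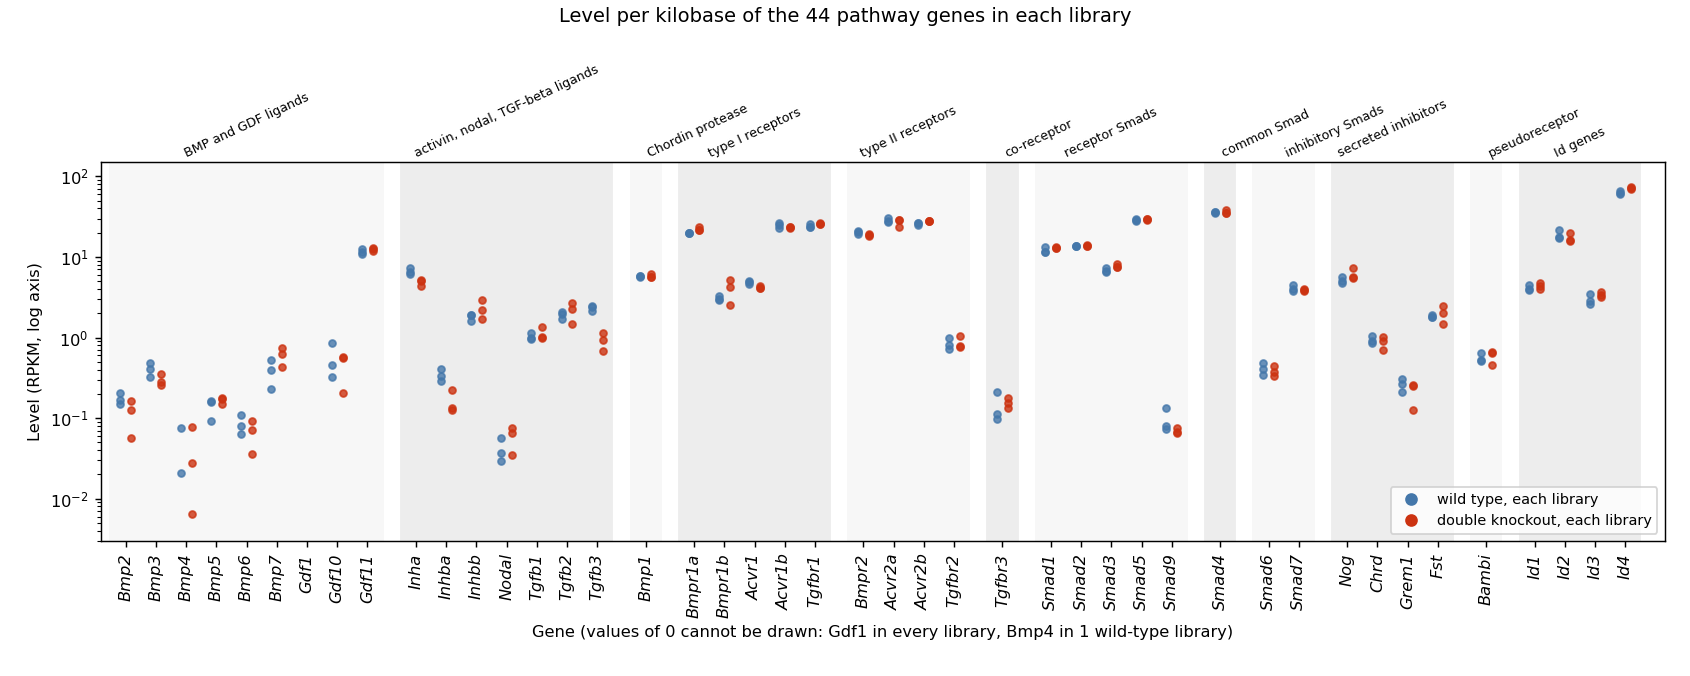
RPKM on a log axis for each of the 44 genes in each library, grouped by role. Id4 is the highest and Bmp4 and Nodal are the lowest genes with reads, and the Tgfb3 points of the double knockout lie below those of the wild type.

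Among the TGF-beta ligand genes, Tgfb3 (ENSMUSG00000021253) fell while Tgfb1 and Tgfb2 were not called. In the order of the replicate numbers, used throughout, Tgfb3 was at 8.24, 8.07 and 7.17 CPM in the wild type and at 3.19, 2.27 and 3.85 CPM in the double knockout. Every double knockout library was below every wild-type library. The double knockout mean was 39.6% of the wild-type one (log2 fold change -1.33, SE 0.182, 95% interval -1.75 to -0.915, edgeR adjusted p 0.00678). It remained called under all 14 alternative settings, with log2 fold changes from -1.51 to -1.15 and a highest adjusted p of 0.0349. The opposite-strand genes that overlap its exons in GENCODE M21, Gm37804 and Gm48008, were at 0.0383 and 0.0804 CPM in the wild type. Fewer cells that express a gene and less of its RNA per cell cannot be told apart in these bulk libraries. Gad2, which encodes a GABA-synthesising enzyme, also fell, from a mean of 322.5 to 124.3 CPM, and the summed cortical markers were lower without overlap. Their part in the difference of Tgfb3 was not tested.

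Tgfb1 was at 5.70, 4.98 and 4.88 CPM in the wild type and 4.99, 5.08 and 6.85 CPM in the double knockout. Tgfb2 was at 11.98, 9.80 and 11.2 CPM in the wild type and 15.6, 12.97 and 8.43 CPM in the double knockout. The groups overlapped for both, and double knockout replicate 3 was the highest library for Tgfb1 and the lowest for Tgfb2. The log2 fold changes were 0.12 (95% interval -0.219 to 0.465) and 0.16 (-0.293 to 0.623). The interval of Tgfb3 did not overlap either of these, although the difference between the genes was not tested.

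Among the activin and inhibin subunit genes, Inhba and Inha had lower values in every double knockout library than in any wild-type library, and both missed the threshold. Inhba encodes the beta A subunit of activin A, and Inha encodes the alpha subunit that turns activin dimers into inhibins. Inhba was at 2.58, 1.87 and 2.14 CPM in the wild type (120 to 151 reads) and 0.847, 0.815 and 1.43 CPM in the double knockout (47 to 99 reads). The groups did not overlap, and the log2 fold change was -1.08 (SE 0.251, 95% interval -1.65 to -0.508). It missed the threshold in edgeR with an adjusted p of 0.0681. Inhba was called by DESeq2 (adjusted p = 0.00337), in edgeR without the low-count filter (adjusted p = 0.0192) and in edgeR without double knockout replicate 3 (adjusted p = 0.0112). Over the 14 alternatives its adjusted p reached 0.244.

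Inha was at 9.54, 9.15 and 10.6 CPM in the wild type and at 7.75, 7.39 and 6.36 CPM in the double knockout, again without overlap. Its log2 fold change was -0.45 (SE 0.111), at adjusted p of 0.0863 in edgeR and 0.0115 in DESeq2. Over the 14 alternatives its adjusted p reached 0.273. Inhbb, the gene of the other activin beta subunit, was at 8.02, 6.91 and 7.997 CPM in the wild type and 9.38, 7.20 and 12.3 CPM in the double knockout. These groups overlapped, with an adjusted p of 0.497 in edgeR. Nodal, which encodes the early axis-forming ligand, had 4 to 7 reads in the wild type against 5 to 9 in double knockout libraries, and was not tested.

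**Figure D3:**
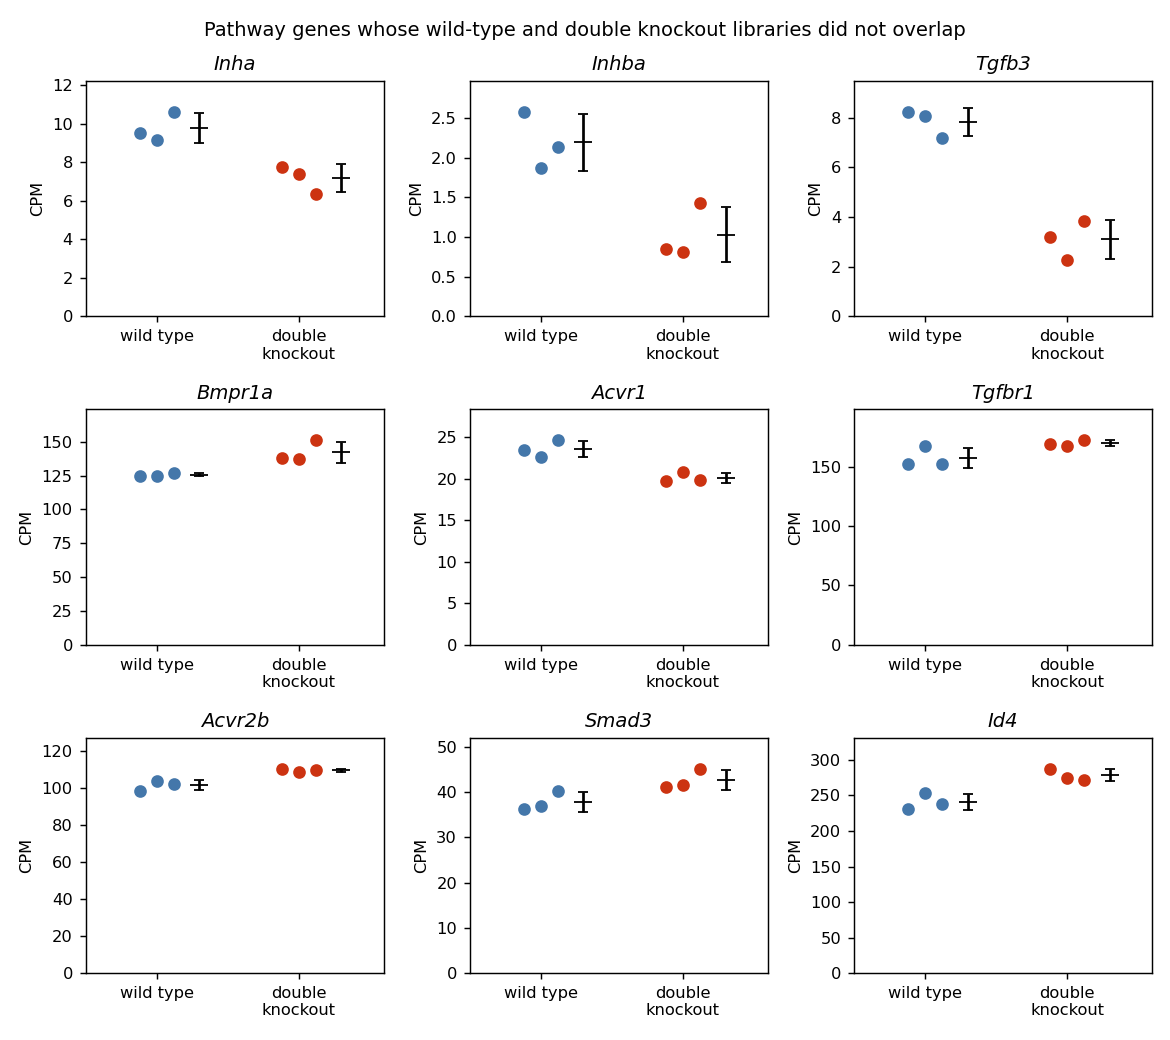
CPM in each library (points) with the mean and SD of each genotype (n = 3) for the 9 genes whose genotypes did not overlap. Inha, Inhba, Tgfb3 and Acvr1 are lower in the double knockout and the other 5 higher, and Tgfb3 and Inhba stand out by size.

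Of the 9 BMP and GDF ligand genes 7 were tested and none was called, where 2.68% of all tested genes were called. Gdf11, which restrains neurogenesis in several tissues, was at 44.1 to 50.7 CPM in wild-type libraries and 48.01 to 52.6 in double knockout libraries, with a log2 fold change of 0.10 (95% interval -0.0573 to 0.251). Bmp7 was at 1.604, 0.934 and 2.10 CPM in the wild type and 2.94, 2.52 and 1.72 CPM in the double knockout. The groups overlapped, and the adjusted p was 0.439 in edgeR. Bmp3, an atypical BMP that opposes the others, was at 3.57, 3.02 and 2.40 CPM in the wild type and 2.59, 2.08 and 1.92 CPM in the double knockout. These overlapped too (log2 fold change -0.45, adjusted p 0.360 in edgeR). Bmp2, Bmp5 and Bmp6 stayed below 1 CPM, with 8 to 50 reads per library, and the 95% interval of Bmp2 ran from -1.47 to 0.248 on the log2 scale. Such an interval leaves room for changes of any size inside it.

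Bmp4, a dorsal midline signal, had 10, 0 and 3 wild-type reads against 4, 10 and 1 from the double knockout, and was not tested. Gdf10, which encodes BMP3B, was at 4.49 CPM in wild-type replicate 1 and at 1.68 and 2.39 CPM in the other two. The double knockout values of Gdf10 were 2.94, 2.97 and 1.08 CPM. Wild-type replicate 1 was thus the highest library for Gdf10. It also had the highest sum of the choroid plexus and roof plate markers, mostly from Ttr (26.3 CPM), with Folr1 and Clic6 highest there too. The other markers went another way: Lmx1a, Rspo1 and Rspo2 were highest in double knockout replicate 1. Kcnj13 was lowest in wild-type replicate 1. The log2 fold change of Gdf10 was -0.29 with all libraries, 0.19 without wild-type replicate 1 and 0.06 without double knockout replicate 3, and it was not called in any of these fits. The part of choroid plexus or roof plate tissue in these values was not tested. Gdf1 had 0 reads in all 6 libraries, which allows up to 3 reads each, or 0.0428 to 0.053 CPM for counting error only. Its exons overlap those of Cers1 on the same strand and of Upf1 on the other, so its count is uncertain.

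Over the 13 tested ligand genes the median log2 fold change was -0.293, with 6 above and 7 below 0. That sign rested on single libraries and on the filter. The median was 0.0902 without wild-type replicate 1, 0.014 without double knockout replicate 3 and 0.107 without the low-count filter. With all libraries the median was the value of Gdf10, the middle gene of the 13. Gdf10 changed sign without wild-type replicate 1 (0.19) and without double knockout replicate 3 (0.06). Without the filter, Bmp4 and Nodal, with few reads, also entered the set.

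None of the 10 receptor and co-receptor genes was called. Their median log2 fold change was 0.0742, and it was -0.0664 without wild-type replicate 2. Bmpr1a, which encodes a type I receptor of BMPs, was at 124.8, 125.0 and 126.9 CPM in the wild type and 138.2, 137.1 and 151.1 CPM in the double knockout. The groups did not overlap (log2 fold change 0.18, SE 0.0508, edgeR adjusted p 0.140). Acvr1, which encodes the BMP type I receptor ALK2, was on the other side, at 23.5, 22.6 and 24.6 CPM in the wild type and 19.7, 20.8 and 19.8 CPM in the double knockout. These did not overlap either (log2 fold change -0.23, SE 0.0690, edgeR adjusted p 0.164). Neither was called under any of the 14 alternatives.

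Bmpr1b, which encodes another BMP type I receptor, was at 17.2, 18.2 and 19.5 CPM in the wild type and at 15.1, 30.9 and 24.97 CPM in the double knockout. Double knockout replicate 1 lay below all wild-type libraries while the other two lay above them. With all libraries the adjusted p was 0.545 in edgeR. Without double knockout replicate 1, Bmpr1b was called higher (log2 fold change 0.61, edgeR adjusted p 0.0438). That library was the one of its group with high Xist. Wild-type replicates 2 and 3, also with high Xist, were at 18.2 and 19.5 CPM against 17.2 CPM in replicate 1. With the Y-linked covariate the log2 fold change over all libraries was 0.19 (edgeR adjusted p 0.860). The part of embryo sex in the values of Bmpr1b was not tested.

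The other receptor genes had log2 fold changes between -0.105 and 0.131. Acvr1b, Acvr2a and Bmpr2 had log2 fold changes of -0.09, -0.09 and -0.11. Tgfbr1 and Acvr2b had 0.11 each without overlap between groups, at adjusted p of 0.414 and 0.308 in edgeR. Tgfbr2 was at 5.97 to 8.19 CPM in wild-type libraries and 6.33 to 8.53 in double knockout libraries. Tgfbr3, which encodes the co-receptor betaglycan and binds TGF-betas and inhibins, was at 0.638 to 1.40 and 0.867 to 1.16 CPM.

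All 8 Smad genes were tested and none was called, with a median log2 fold change of 0.00319. Smad4 was at 134.0, 134.0 and 132.0 CPM in the wild type and 129.3, 131.8 and 141.0 CPM in the double knockout. Its log2 fold change of 0.0078 had a 95% interval of -0.102 to 0.117. Smad2 was at 120.0 to 121.3 and 118.6 to 123.1 CPM, and Smad5 at 209.8 to 216.8 and 216.3 to 222.7 CPM, both with overlap. Smad3 was the Smad gene without overlap, at 36.3, 36.97 and 40.3 CPM in the wild type and 41.1, 41.6 and 45.2 CPM in the double knockout. Its log2 fold change was 0.17 (SE 0.0664, edgeR adjusted p 0.304). Smad1 was at 72.2 to 82.2 and 80.2 to 82.5 CPM. Smad9, the least expressed BMP Smad, had 20 to 46 reads per library.

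The inhibitory Smads are themselves targets of the pathway and act as feedback. Smad7, which blocks TGF-beta and BMP receptors, was at 18.3, 17.3 and 20.05 CPM in the wild type and 18.04, 16.96 and 17.5 CPM in the double knockout. Smad6, which acts mainly on BMP signals, was at 1.09 to 1.56 and 1.06 to 1.42 CPM. Both overlapped between groups, with log2 fold changes of -0.08 and -0.10.

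The 5 inhibitor genes had a median log2 fold change of 0.0534, which was -0.0160 without wild-type replicate 2 and -0.0711 without double knockout replicate 1, and none was called. Nog encodes noggin, a secreted protein that traps BMPs, and was at 8.004, 9.44 and 8.54 CPM in the wild type and 9.37, 9.63 and 12.5 CPM in the double knockout. The groups overlapped (log2 fold change 0.28, SE 0.131, edgeR adjusted p 0.419). Chrd, for the BMP trap chordin, was at 5.39 to 6.60 and 4.40 to 6.43 CPM. Bmp1, whose product is a protease that cleaves chordin and not a BMP ligand, was at 49.9 to 51.8 and 49.4 to 53.8 CPM. Fst, for the activin trap follistatin, was at 8.21 to 8.68 CPM in the wild type and at 11.3, 9.30 and 6.75 CPM in the double knockout. Double knockout libraries of Fst thus lay on both sides of the wild type. Grem1, for the BMP trap gremlin, was at 0.873 to 1.26 and 0.519 to 1.06 CPM, and the pseudoreceptor gene Bambi at 2.57 to 3.29 and 2.29 to 3.31 CPM.

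The 4 Id genes were not called either. Id4, known from neural progenitors, was at 230.5, 252.8 and 238.5 CPM in the wild type and at 287.6, 274.7 and 271.8 CPM in the double knockout. The groups did not overlap (log2 fold change 0.21, SE 0.0541, 95% interval 0.0851 to 0.332, edgeR adjusted p 0.102). DESeq2 called Id4 higher with an adjusted p of 0.0321, and over the 14 alternatives the adjusted p reached 0.386. The opposite-strand gene A330033J07Rik, whose exons overlap Id4, was at 0.369 and 0.531 CPM in the wild type and double knockout.

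Id2, which is also expressed in differentiating neurons, was at 52.4, 41.7 and 43.1 CPM in the wild type and 49.05, 40.2 and 38.8 CPM in the double knockout. Id1 was at 4.59, 4.47 and 5.19 CPM in the wild type and 4.59, 5.13 and 5.49 CPM in the double knockout. Id3 was at 6.14, 4.62 and 5.05 CPM and at 6.01, 6.63 and 5.72 CPM. All 3 overlapped between groups, with 95% intervals for the log2 fold change of -0.359 to 0.158 for Id2, -0.183 to 0.373 for Id1 and -0.0897 to 0.520 for Id3. Id1 and Id3 are widely used as readouts of BMP signals.

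Precision followed expression level. The 12 genes with a mean of 50 CPM or more had a median 95% half-width of 0.120 on the log2 scale, and no interval among them reached beyond 0.332. The 6 tested genes under 1 CPM had a median half-width of 0.720.

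A further 67 genes of the pathway (other ligands, receptors, secreted and intracellular regulators, and targets) were examined in the same fit. Of them 51 were tested, and 4 were called higher and 2 lower, where 1.34% of all tested genes were called in each direction. The median log2 fold change of the 51 was 0.0832. None of the 4 tested ligands or 8 tested targets among them was called, and the BMP targets Msx1 and Msx2 were below the filter. Msx1 had 54 reads in wild-type replicate 1 and 5 to 8 in each other library.

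The secreted regulators held 3 of the calls, all higher. Nbl1, which encodes a BMP antagonist of the DAN family, was at 2.24, 3.07 and 2.03 CPM in the wild type and 5.33, 5.12 and 5.13 CPM in the double knockout. The double knockout libraries were above every wild-type library, and the gene was called (log2 fold change 1.09, SE 0.166, edgeR adjusted p 0.0110). Bmper, for a BMP-binding regulator related to chordin, rose from 26.6 ± 0.295 to 36.8 ± 3.07 CPM (log2 fold change 0.47, adjusted p 0.0120 in edgeR). Fstl1, for a follistatin-related secreted protein, rose from 67.2 ± 1.06 to 81.7 ± 1.63 CPM (log2 fold change 0.28, adjusted p 0.0129 in edgeR). Nbl1 lost its call without wild-type replicate 1 (edgeR adjusted p 0.0593). Bmper lost it without any one wild-type replicate (0.0532 to 0.0575). Fstl1 lost it without wild-type replicate 1 or 2 or double knockout replicate 2 (0.0579 to 0.0677) and with the Y-linked covariate (0.0732). Of the 19 tested secreted regulators, 12 had an unadjusted p under 0.05, where 13.3% of all tested genes did. Of the 19, 8 were higher and 2 were lower without overlap between groups, where the shares of all tested genes were 9.3% and 10.2%, so the lower ones were near the background share. The list of further genes was drawn up with earlier results of these data known. These counts therefore describe the listed genes and are no test of the group.

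**Figure D4:**
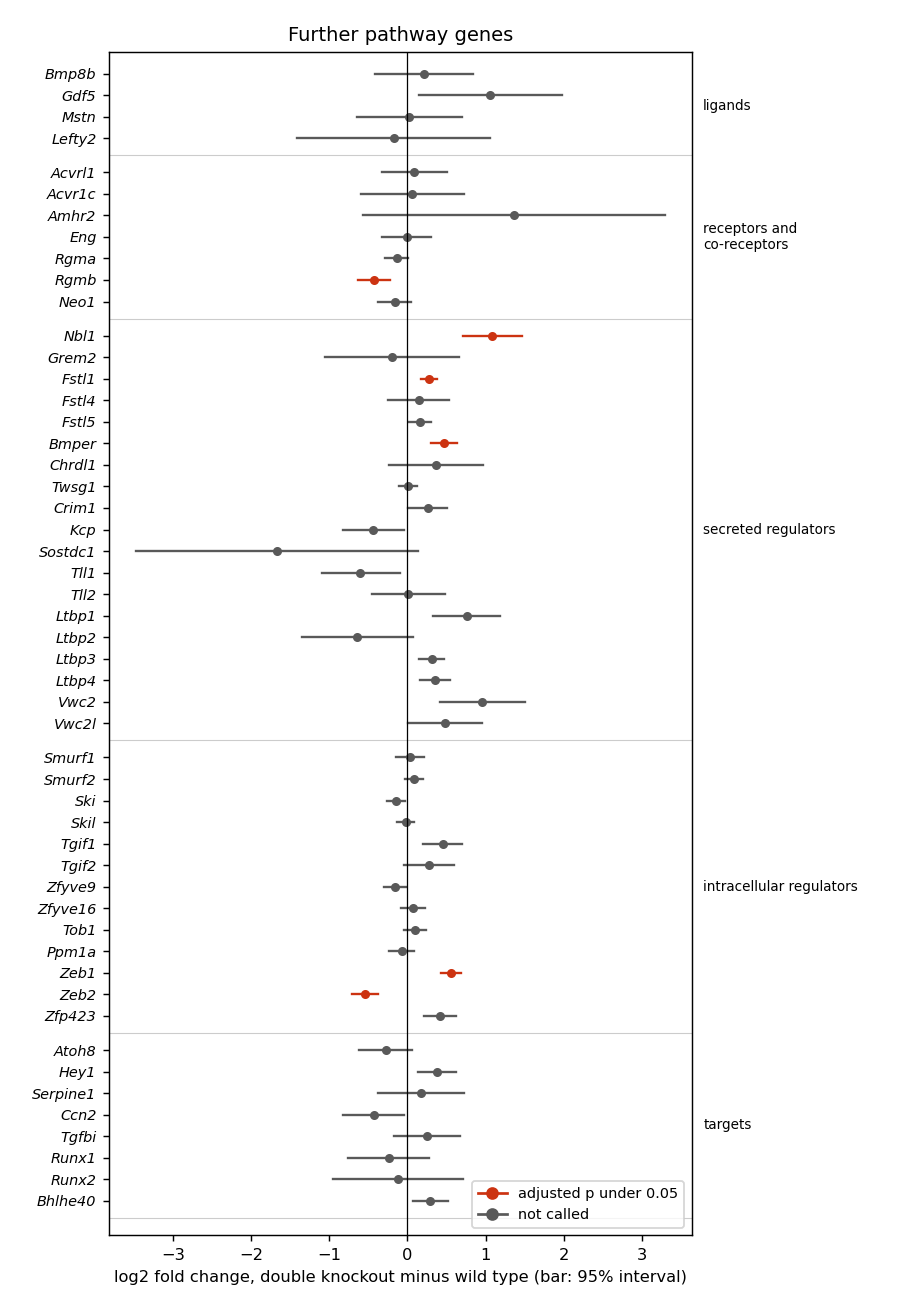
Log2 fold change (double knockout minus wild type, x axis) with 95% intervals for the 51 tested further genes of the pathway, by role. The 6 called genes are in red: Nbl1, Fstl1, Bmper and Zeb1 to the right of 0, and Rgmb and Zeb2 to the left.

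The paralogous Smad-binding zinc finger genes Zeb1 and Zeb2 were called in opposite directions. Zeb2, which encodes the Smad-interacting protein SIP1, a factor known from interneuron migration, was at 487.9, 472.4 and 484.4 CPM in the wild type. In the double knockout it was at 306.1, 316.5 and 366.9 CPM, below every wild-type library. Its log2 fold change was -0.55 (SE 0.0738, edgeR adjusted p 0.00626). Zeb1, a repressor known from progenitors and from epithelial-mesenchymal transition, was at 150.1, 154.9 and 162.8 CPM in the wild type and 223.7, 222.1 and 244.7 CPM in the double knockout. All double knockout libraries were above the wild type, and the log2 fold change was 0.56 (SE 0.0567, edgeR adjusted p 0.00139). Both remained called under all 14 alternatives. The antisense gene Zeb2os, whose exons overlap Zeb2, was at 2.91 and 2.22 CPM, and Gm10125, opposite to Zeb1, at 3.59 and 5.01 CPM.

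Rgmb, for a membrane-anchored BMP co-receptor of the repulsive guidance molecule family, fell from 197.2, 181.9 and 179.6 CPM to 141.5, 154.2 and 119.1 CPM. Its log2 fold change was -0.43 (SE 0.0895, edgeR adjusted p 0.0442). It kept its call in 7 of the 14 alternatives, and in the others the adjusted p reached 0.177. It lost the call without any one wild-type replicate, without double knockout replicate 1, with total count scaling, with the filter at a mean of 1 CPM and with the Y-linked covariate.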

How the data were processed

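Per the labels' protocols, stranded libraries depleted of ribosomal RNA were made from DNase-treated total RNA of frozen ganglionic eminences. The authors deposited raw read counts per gene for 6 libraries, made with featureCounts on GRCm39 per the submitters' processing notes. The aligner, annotation release and the strand and multi-mapping settings are not given in the sources used here, so counts of genes with overlapping exons are uncertain. All value columns were used, and no pair of libraries agreed within sampling noise (chi-square per tested gene 13.1 to 61.6).

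Genes were filtered with filterByExpr (minimum count 10, minimum total 15), scaled by TMM and fitted over the whole table with edgeR 4.0.16 in R 4.3.3 (quasi-likelihood test, prior count 0.125, Benjamini-Hochberg adjustment, threshold 0.05). Standard errors are the coefficient over the square root of F. CPM values are TMM-scaled. Exon lengths and overlaps came from GENCODE M21 (GRCm38), which may differ from the authors' annotation. The alternatives were DESeq2 1.42.0 and its size factors, limma-voom (limma 3.58.1), total count scaling, 2 other filters, a replicate block, a Y-linked covariate (summed Ddx3y, Eif2s3y, Kdm5d and Uty) and each library left out. The fit was tested on simulated data, where false calls took a larger share than the threshold implies and part of the smaller changes was missed, so calls near the threshold are less certain. Named genes were the 44 members, Dlx1, Dlx2 and every called further gene. The members and lists were chosen with earlier results of these data known.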

Additional observations from a re-analysis of the deposited data

How the results depend on the processing

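Over the 14 alternatives (13 for Bmp2, Bmp5, Bmp6, Grem1, Smad9 and Tgfbr3, which the 1 CPM filter removed) the call of Tgfb3 was not lost. The number called was 1, except that it was 2 without the low-count filter, 4 with DESeq2 (1 higher, 3 lower) and 1 to 2 in the fits without a library. For the further pathway genes it was 6, against 11 without the filter, 13 with DESeq2 and 7 with total count scaling. It was 4 with the Y-linked covariate and 2 to 9 without a library (2 without wild-type replicate 1, 9 without double knockout replicate 3). Over all genes it was 634, against 1162 with DESeq2, 874 without the filter and 358 with the Y-linked covariate. It was 309 to 749 without a library (309 without wild-type replicate 1) and 615 to 690 under the other settings. Total count scaling called 390 higher and 256 lower, 60.4% higher in place of 50%, and moved the median of all genes from -0.00161 to 0.0268. That of the Smad genes became 0.0316, and no filter gave 0.0087 for all genes and 0.107 for ligands. The medians without the filter, and the alternatives for Dlx1, Dlx2 and the called further genes, were chosen after seeing the data. Without a library, medians ran from -0.398 to 0.0902 for ligands, -0.0664 to 0.111 for receptors and -0.00334 to 0.0277 for Smads. The ligand median with all libraries was the value of Gdf10. For receptors and Smads the cause was not tested. Sign changes occurred for 14 genes, none of them called. Without a library, log2 fold changes ran from -0.564 to 0.191 for Gdf10, -0.0351 to 0.204 for Tgfb1, -0.0423 to 0.385 for Tgfb2, -0.0220 to 0.0472 for Bmp1, -0.144 to 0.0120 for Acvr2a, -0.110 to 0.177 for Tgfbr2 and -0.0768 to 0.554 for Tgfbr3. They ran from -0.0159 to 0.0173 for Smad2, -0.0240 to 0.0331 for Smad4, -0.213 to 0.0442 for Smad6, -0.221 to 0.0529 for Chrd, -0.0711 to 0.297 for Fst, -0.0375 to 0.204 for Bambi and -0.213 to 0.00831 for Id2. Smad2 was at 0.00326 with DESeq2's size factors, 0.0275 with total count scaling, 0.00888 without the filter, 0.0104 with the 1 CPM filter and 0.00321 with DESeq2. With the Y-linked covariate Tgfbr2 was at -0.0585 and Smad4 at -0.00738. The labels give same-numbered libraries only a number in common, and their litters are not given. The correlations of their deviations from group means, over 16475 genes averaging 1 CPM or more, were 0.273, 0.0875 and 0.134, and wild-type replicate 2 correlated best with double knockout replicate 3. With the replicate block 690 genes were called, 1 among the 44 and 6 among the further genes, with the calls of Tgfb3 and of those 6 shared with the unblocked fit.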

Other observations

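Some secreted regulators that were not called are named here after their values were seen, and form no list that was tested. Ltbp1, Ltbp3 and Ltbp4 encode latent TGF-beta binding proteins, which hold TGF-betas in the matrix. Their means were 6.35, 14.4 and 22.2 CPM in the wild type and 10.7, 17.9 and 28.5 CPM in the double knockout, without overlap between groups. The adjusted p in edgeR was 0.0901, 0.0693 and 0.0728. Ltbp2, the other family member, was lower without overlap, at 0.357 and 0.228 CPM (edgeR adjusted p 0.431). Vwc2, for the secreted BMP antagonist Brorin, was at 2.34 and 4.57 CPM (edgeR adjusted p 0.0891) without overlap, and its paralogue Vwc2l at 4.56 and 6.38 CPM with overlap (edgeR adjusted p 0.362).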
